A study of Homo sapiens with 30 samples.

Results

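In IMR32 cells, 2 antisense oligonucleotides (ASOs) directed at the same long non-coding RNA, NESPR, were set against each other. Antisense oligonucleotides are short synthetic strands that pair with an RNA and lower or block it, and the series calls these ASO1 and ASO2. The comparison uses 8 of the 30 libraries of the series, 4 with ASO1 and 4 with ASO2, taken by the treatment and cell line in their labels. The 4 libraries of a negative control ASO (NCA) in the same cells serve only to say which of the 2 groups lay farther from the control. IMR32 is an established MYCN-amplified neuroblastoma line, so every IMR32 group is 1 line, and all groups, the control included, carried a lipofected ASO at 100 nM. NGP and SK-N-BE(2)c, used at the end, are established MYCN-amplified neuroblastoma lines that received ASO2 or NCA at the same dose, with 3 libraries each, and no ASO1. The labels give no time between transfection and harvest, and they number the libraries as replicates without saying whether the cultures were separate. The p-values therefore measure the spread between these libraries, which may be technical.

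No row named NESPR was used here, so neither its knockdown nor a difference in knockdown between ASO1 and ASO2 is reported. As background, an oligonucleotide can act on its intended transcript, on other transcripts with a similar sequence, and through the cell's handling of foreign nucleic acid and lipid; which of these lies behind a difference below was not tested. Several response systems recur in the results. The p53 protein is a transcription factor held low by MDM2, itself a p53 target, and when it accumulates it raises genes of cell cycle arrest, DNA repair and cell death. NRF2, held by KEAP1, raises antioxidant and glutathione genes together with HMOX1, which is also controlled by the repressor BACH1. HSF1 raises chaperones such as the HSP70 family when proteins misfold. SREBP2 raises cholesterol synthesis genes when membrane sterol is low.

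Libraries held 9393587 to 13932379 recovered reads, and 17309 genes with a mean normalized count of at least 10 were tested. Markers of adrenergic neuroblastoma cells were all present (10 of 10 tested), with a summed level of 50428 to 56445 normalized counts with ASO1, 53119 to 59491 with ASO2 and 57011 to 60046 with NCA. The Schwann cell markers SOX10, S100B and CDH19 were at 3 reads or fewer in every library, and the 6 leukocyte markers summed to 6.39 to 21.8 with ASO1 and 16.7 to 18.8 with ASO2. The 8 fibroblast markers summed to 1385 to 1516 with ASO1 and 1715 to 1803 with ASO2, with POSTN at the floor. Summed levels of the 8 Schwann cell markers were 207 to 221 and 232 to 265 in the same order, and those of the 10 mesenchymal-type markers 4049 to 4780.1 and 4911 to 5353. The part of these marker levels in the results below was not tested. Replicate 1 of each group stood apart from replicates 2 to 4: its deviations from the group means went together across the 3 groups (correlations across genes of 0.332 for ASO1 with ASO2, 0.318 for ASO1 with NCA and 0.261 for ASO2 with NCA, where genes are not independent replicates). What sets replicate 1 apart is not in the labels, so counts that depend on it are given with and without it.

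ASO1 and ASO2 left different transcriptomes. Called genes are those with an adjusted p under 0.05 in limma (Benjamini-Hochberg over all genes tested), and fold changes are differences of log2(normalized count + 1), ASO1 minus ASO2, unless stated. Of 17309 genes, 3795 were called (21.9%), 1588 higher with ASO1 (9.17%) and 2207 higher with ASO2 (12.8%). Most differences were small, with a median size of 0.35 on the log2 scale among genes higher with ASO1 and 0.28 among those higher with ASO2. Only 57 called genes were higher by at least 1 on the log2 scale with ASO1 and 63 with ASO2. In 21.0% of genes the 4 ASO1 and the 4 ASO2 libraries did not overlap. Under rescaling of all libraries to 1 total, the split turned to 2352 higher with ASO1 and 1581 with ASO2, and the median of all genes moved from -0.0014 to 0.052. The direction of small differences over broad gene groups moved with the scaling, so the list counts below are given under both scalings where they changed. Of the 213 genes taken up here, 105 overlap a gene on the opposite strand in the annotation, and whether reads were counted by strand is not given in the sources used here, so reads of such pairs may be mixed.

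**Figure D1:**
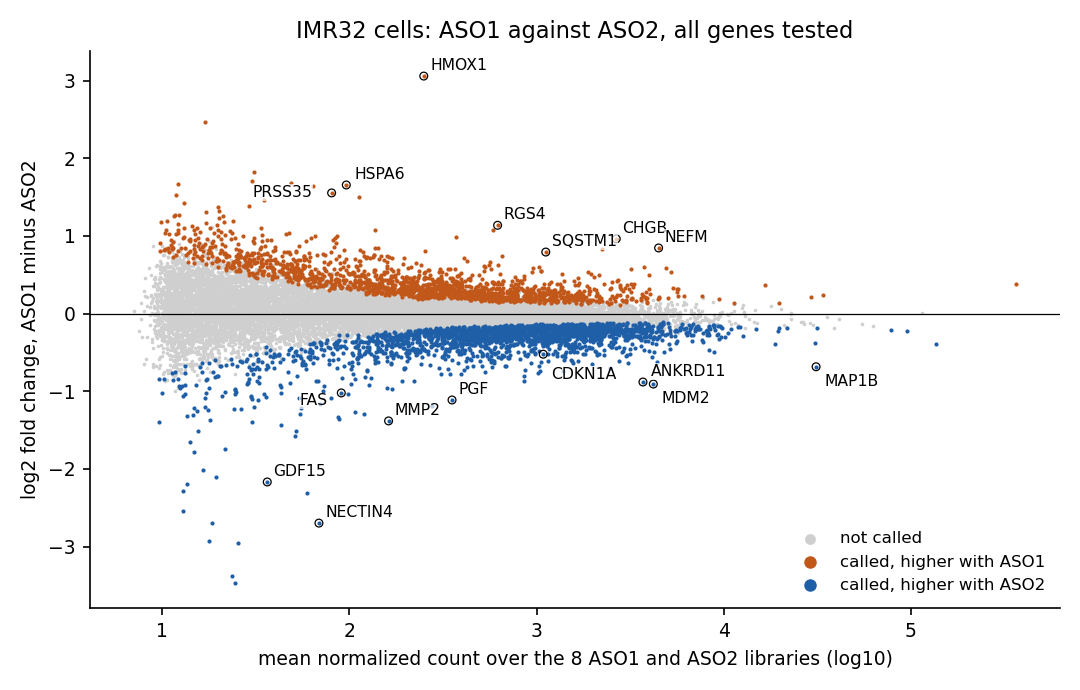
Log2 fold change of ASO1 minus ASO2 against the mean normalized count (log10) for the 17309 genes tested in IMR32, with called genes coloured by direction. HMOX1 at 3.06 stands above every other gene, while NECTIN4, GDF15, MMP2 and MDM2 lie on the ASO2 side.

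Both ASOs departed from the control. ASO1 differed from NCA in 2354 genes upward (13.6%) and 2496 downward (14.4%), and ASO2 in 3051 upward (17.6%) and 2556 downward (14.8%); both use the same 4 control libraries. Of the 1588 genes higher with ASO1, 420 were above NCA with ASO1 and not called with ASO2, and 575 were below NCA with ASO2 and not called with ASO1. Of the 2207 genes higher with ASO2, 806 were above NCA with ASO2 only and 675 were below NCA with ASO1 only. NCA lay between the 2 ASOs in 853 of the 1588 and in 1144 of the 2207 genes. Genes moved in opposite directions by the 2 ASOs, each called against NCA, numbered 38 (ASO1 up, ASO2 down) and 129 (ASO1 down, ASO2 up).

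Among the 31 gene lists, the p53 targets had the highest share of members called, and nearly all calls were on the ASO2 side. All 31 lists were chosen with earlier results of these data known. MDM2 and NECTIN4 of the p53 list were already known from those results, so the ranking is a description only. Of 36 listed targets, 33 were tested, and 23 were higher with ASO2 and 1, GADD45A, with ASO1, against 12.8% and 9.17% of all genes. The median of the 33 was -0.38, against -0.0014 for all genes, and after rescaling to the same total 20 were still higher with ASO2 and 1 with ASO1. Without replicate 1 of every group the counts were 25 and 1. Against NCA, 28 of the 33 were up and 1 down with ASO2, and 17 up and 4 down with ASO1. The shares over all genes were 17.6% up and 14.8% down with ASO2, and 13.6% up and 14.4% down with ASO1.

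MDM2, the ubiquitin ligase that targets p53 for degradation, had normalized counts of 3022, 2879, 3031 and 2780.4 in the ASO1 libraries and 5262, 5396, 5656 and 5659 in the ASO2 libraries. The control libraries gave 2981, 2911, 2889.5 and 2924, so ASO1 lay at the control level and ASO2 1.88-fold above ASO1 (log2 fold change -0.91, SE 0.044, limma adjusted p 1.99e-11). CDKN1A encodes p21, the inhibitor of cyclin-dependent kinases that carries p53's cell cycle arrest. Its counts were 852, 899, 955 and 843 with ASO1, 1038, 1309.8, 1345 and 1442 with ASO2, and in the control 580.5, 571, 661 and 652, so that both ASOs lay above the control and ASO2 the farther (-0.52, limma adjusted p 7.97e-05). The lowest ASO2 library for CDKN1A was replicate 1, and the 2 ASO groups did not overlap.

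Other regulators of the pathway were also higher with ASO2. PPM1D, the WIP1 phosphatase that shuts off p53 signalling, was at 1109.8 ± 13.5 with ASO1 against 1618 ± 69.9 with ASO2 (SD, n = 4 here and below; -0.54, adjusted p 1.18e-07). TP53INP1, a nuclear co-regulator of p53, and ZMAT3, an RNA-binding p53 effector, differed by -0.57 and -0.61 (limma adjusted p 3e-07 and 1.01e-06). Both lay below NCA with ASO1 (-0.19 and -0.20) and above it with ASO2 (0.38 and 0.41). CCNG1, a cyclin that acts with MDM2, differed by -0.27 (limma adjusted p 0.00381).

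Death receptors and a BH3 gene were on the same side. FAS, the receptor of Fas ligand, had counts of 61.1, 53.2, 59.7 and 63.5 with ASO1 and 123, 129, 119 and 115 with ASO2, with 48.4, 58.0, 62.6 and 62.5 in the control (-1.02, limma adjusted p 2.27e-06). The ASO1 and NCA libraries thus overlapped and all ASO2 libraries lay above both. TNFRSF10B, which encodes the TRAIL receptor DR5, was at 834 ± 40.5 with ASO1, 1285 ± 67.4 with ASO2, and in the control 1076 ± 32.0 (-0.62, limma adjusted p 7.58e-08). It was lowered by ASO1 (-0.37) and raised by ASO2 (0.26) relative to NCA. BBC3, the BH3-only protein PUMA, was at 108 ± 23.3, 166 ± 19.0 and 72.4 ± 8.49 (-0.63, limma adjusted p 0.00182). Not every apoptotic target differed: BAX and PMAIP1 (NOXA), with differences of -0.13 and 0.015, did not pass the test (limma adjusted p 0.234 and 0.91). In the wider BCL2 family, 5 of 20 tested members were higher with ASO2 and 1 with ASO1, against 12.8% and 9.17% of all genes. The counts were 4 and 2 after rescaling to the same total, and 2 with ASO1 without ASO1 replicate 1 or 4. Among those higher with ASO2 were the BH3-only gene BCL2L11 (-0.41) and APAF1, the apoptosome scaffold (-0.33).

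Several repair and metabolic targets were higher with ASO2. RRM2B, the p53-inducible ribonucleotide reductase subunit, was at 326 ± 10.1 with ASO1 and 525 ± 19.4 with ASO2 (-0.69, limma adjusted p 1.05e-07). POLH, a translesion DNA polymerase, and XPC, a damage sensor of nucleotide excision repair, differed by -0.51 and -0.22 (adjusted p 7.98e-06 and 0.00183). DDB2, the partner of XPC in damage recognition, gave 0.018 and did not pass (limma adjusted p 0.908). FDXR, a mitochondrial reductase, was at 232 ± 41.7 and 331 ± 29.6 (-0.53, adjusted p 0.00308), and the sestrin SESN1 at 240.3 ± 21.3 and 319 ± 21.5 (-0.41, adjusted p 0.000804). GADD45A, a stress sensor with p53-dependent and p53-independent control, was the exception, at 1588 ± 96.8 with ASO1 and 1392 ± 58.9 with ASO2 (0.19, limma adjusted p 0.0123). It was above NCA with both ASOs, and its call was lost without ASO1 replicate 3 (0.16).

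The largest differences in the p53 list were in genes of low level with ASO1 and NCA. NECTIN4, an adhesion molecule of the nectin family, had counts of 17.3, 19.4, 16.1 and 17.5 with ASO1, 13.0, 14.8, 22.0 and 14.7 with NCA and 109, 118, 122 and 130.3 with ASO2. Every ASO2 library was far above the other 8, and the ASO2 mean was 6.8-fold the ASO1 mean (-2.70, SE 0.17, limma adjusted p 1.13e-09). GDF15, a secreted stress cytokine of the TGF-beta family, had 12.8, 18.4, 8.53 and 11.7 with ASO1, 47.4, 60.3, 70.1 and 61.7 with ASO2, and in the control 17.7, 25.9, 15.4 and 14.7 (-2.17, limma adjusted p 9.99e-07). Log2(value + 1) understates folds at such low counts.

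**Figure D2:**
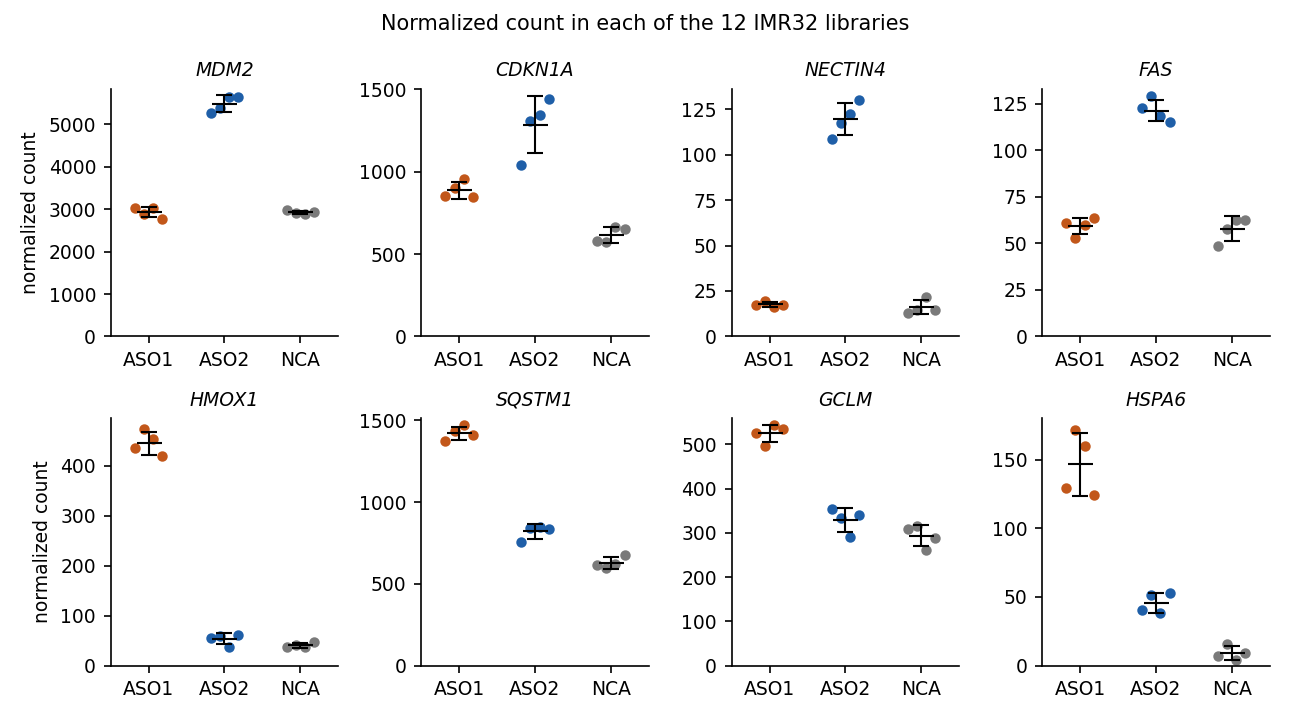
Normalized counts of 8 genes in each of the 12 IMR32 libraries (points, replicates 1 to 4 from left to right in a group), with the mean and SD of each group of 4. MDM2, NECTIN4 and FAS with ASO1 sit at the NCA level and with ASO2 above it, whereas HMOX1, SQSTM1 and GCLM are high with ASO1.

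The highest single difference on the other side was in HMOX1, heme oxygenase 1, which breaks down heme. Its counts were 436, 473, 453 and 419 with ASO1 against 54.4, 60.3, 37.7 and 61.7 with ASO2, and in the control 36.6, 40.7, 37.3 and 47.8, an 8.32-fold ratio of ASO1 to ASO2 (3.06, SE 0.13, limma adjusted p 9.77e-12). The ASO1 libraries were separate from all others, and ASO2 lay 0.37 above NCA on the log2 scale (adjusted p 0.0375). Other NRF2 genes differed by less. SQSTM1, the autophagy receptor p62 that also binds KEAP1, had 1372, 1433, 1468 and 1407 with ASO1, 754, 843, 847 and 838 with ASO2, and in the control 612, 596, 622 and 676 (0.79, limma adjusted p 3.81e-09). GCLM, the modifier subunit of the enzyme that starts glutathione synthesis, had 526, 497, 543 and 535, 354, 333, 290.1 and 341 and 308, 316, 262 and 288 with ASO1, ASO2 and NCA (0.67, limma adjusted p 1.43e-06). For GCLM the ASO2 and NCA libraries overlapped.

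The NRF2 list as a whole was divided. Of 26 listed genes 25 were tested, 10 were higher with ASO1 and 6 with ASO2, against 9.17% and 12.8% of all genes, and the median was 0.070. Rescaling to the same total gave 11 and 5. With ASO1 were also MAFG (0.42, limma adjusted p 1.86e-05), the small partner protein of NRF2, the peroxidase PRDX1 (0.32, adjusted p 0.00233) and the light ferritin chain FTL (0.23, adjusted p 0.0184). With ASO2 were NQO1, a quinone reductase often used as an NRF2 readout (94.9 against 122; -0.36, adjusted p 0.0347), the transketolase TKT (-0.28, adjusted p 0.000204) and the repressor BACH1. BACH1, which occupies the HMOX1 enhancers in the absence of heme, was at 1247 ± 68.1 with ASO1, 1590.3 ± 89.7 with ASO2, and in the control 1382 ± 36.6 (-0.35, limma adjusted p 5.3e-05). The FTL call was lost without ASO1 replicate 3 (0.22) or ASO2 replicate 3 or 4 (0.20 and 0.21). The NQO1 call was lost after rescaling to the same total. It was also lost without any 1 of ASO1 replicates 2, 3 and 4 (-0.32, -0.37 and -0.35) or ASO2 replicates 2 and 3 (-0.35 and -0.28). NFE2L2, the gene of NRF2 itself, gave -0.042 (adjusted p 0.645), and SLC7A11, the cystine importer, 0.13 (adjusted p 0.519). SLC7A11 lay below NCA with both ASOs, at 1264 and 1161 against 2032. Without ASO1 replicate 3 the counts were 6 and 3, and without ASO1 replicate 2 they were 10 and 3. Leaving out replicate 1 of every group gave 9 and 7.

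Heat shock genes were above NCA with both ASOs, and 9 differed between the ASOs. Against NCA, 21 of 24 tested members were up with ASO1 and 24 of 24 with ASO2, from the same control libraries, against 13.6% and 17.6% of all genes. Between the ASOs, 5 were higher with ASO1 and 4 with ASO2 (median 0.041), against 9.17% and 12.8% of all genes. HSPA6, an HSP70 form that is almost absent without stress, had 129.6, 172, 160.2 and 124 with ASO1, 40.3, 51.8, 38.6 and 52.6 with ASO2, and in the control 7.08, 16.0, 4.39 and 9.19 (1.66, limma adjusted p 5.84e-05). The 3 groups did not overlap, in the order ASO1, ASO2, NCA. The inducible HSP70 gene HSPA1B (1125 ± 171 against 777 ± 109; 0.53) and its co-chaperone DNAJB1 (1931 ± 251 against 1408 ± 165; 0.46) had the same order, with NCA at 324 and 649.6 (limma adjusted p 0.00271 and 0.00115). The small heat shock protein gene HSPB1 and the HSP90 gene HSP90AA1 were also higher with ASO1, by 0.33 and 0.24 (adjusted p 0.001 and 0.00681). Higher with ASO2 were SERPINH1, the collagen chaperone (-0.30), AHSA1, an activator of HSP90 (-0.26), HSPA4L (-0.19) and the mitochondrial chaperonin HSPD1 (-0.18). The HSPA4L call was lost with values of -0.18 without ASO1 replicate 3 and -0.17 without ASO2 replicate 4, and the HSPD1 call with -0.15 without ASO1 replicate 3 and -0.17 without ASO2 replicate 4, and also without ASO1 replicate 2 or 4 or ASO2 replicate 1 (-0.17, -0.15 and -0.15). After rescaling to the same total 8 members were higher with ASO1 and 2 with ASO2, and the HSPA4L and HSPD1 calls were lost. HSPA6 and HSPA1B have near-identical copies (HSPA7 and HSPA1A), so how their reads were divided is uncertain. HSF1 gave -0.10 (limma adjusted p 0.144).

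HSPA6 and GCLM carry, in the window before the gene start, the element that names their list, and the stretches are shown because these members lead their lists among those with a match. The sequences are from the RefSeq promoter table of build GRCh38.p14, read in the direction of the gene, and the matches are in capitals. The HSPA6 stretch (chr1:161524436-161524508, plus strand) holds a heat shock element of 3 alternating units, ending 61 bases before the start. The GCLM stretch (chr1:93909431-93909494, minus strand) holds an antioxidant response element, TGACNNNGC, here read on the opposite strand and ending 25 bases before the start.
HSPA6: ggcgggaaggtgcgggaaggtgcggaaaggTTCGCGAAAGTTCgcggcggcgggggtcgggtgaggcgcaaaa
GCLM: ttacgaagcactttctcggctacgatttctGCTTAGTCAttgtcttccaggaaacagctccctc

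Windows of 250 bases before the start were matched by symbol for 11244 of the 17309 genes, with both strands searched and the first listed start used. HMOX1 had no window. A heat shock element stood in 0.285% of all windows and in 4 of 22 windows of the heat shock list, those of HSPA6, HSPA8, CHORDC1 and SERPINH1. Of these, HSPA6 was higher with ASO1, SERPINH1 with ASO2, and HSPA8 (0.12) and CHORDC1 (0.04) did not pass. The antioxidant response element stood in 12.15% of all windows and in 5 of 18 NRF2-list windows, those of GCLM, MAFF, ME1, PGD and TXNRD1. Their ratios of the ASO1 mean to the ASO2 mean were 1.59, 1.04, 1.00, 1.21 and 0.906 in this order. The AP-1 element TGANTCA, whose letters can overlap those of the antioxidant element, stood in 3.50% of all windows. It was in 3 of 26 windows of genes at least 1 higher with ASO1 on the log2 scale and in 6 of 37 of those higher with ASO2, FAS among the latter, but in 0 of 18 windows of the AP-1 and immediate early list. The antioxidant element was in 3 of 26 and 3 of 37 of the same windows. The HSPA6 window held the antioxidant and AP-1 elements too. The ATF4 element TGATGNAA stood in 1.41% of all windows and in 3 of 26 windows of the list of ATF4 target genes, those of ASNS, ATF3 and CHAC1. It was in 0 of 26 windows of the genes at least 1 higher with ASO1 on the log2 scale and in 2 of 37 of those higher with ASO2. A match is a run of letters, not a bound site.

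Immediate early and AP-1 genes rise within minutes to hours of growth or stress signals. They were above NCA with both ASOs in 23 of 23 tested members, against 13.6% of all genes with ASO1 and 17.6% with ASO2. Between the ASOs 7 were higher with ASO1 and 3 with ASO2 (median 0.062), or 8 and 3 after rescaling to the same total. The shares of 30.4% and 13.0% stood against 9.17% and 12.8% of all genes, so the ASO2 share was near that of all genes. With ASO1 were SGK1, a serum- and glucocorticoid-induced kinase (242 against 149, NCA 48.4; 0.71, limma adjusted p 0.00425), FOSB (0.73, adjusted p 0.00471), FOSL2 (0.52, adjusted p 6.91e-05) and JUN (0.49, adjusted p 0.000259). With ASO2 were ARC (-0.40), BTG2 (-0.39) and IER3 (-0.50), of which BTG2 is also on the p53 list and IER3 on the ERK list. FOS and EGR1, at 0.34 and -0.13, did not pass (limma adjusted p 0.218 and 0.596). Without ASO1 replicate 3 the ASO1 count was 4.

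Feedback genes of the ERK pathway, which ERK induces and which then restrain it, lay on both sides. Of 16 tested, 7 were higher with ASO2 and 3 with ASO1 (median -0.17), against 12.8% and 9.17% of all genes, and 5 and 4 after rescaling to the same total. DUSP6, the cytoplasmic ERK phosphatase, had 74.8, 68.5, 77.7 and 86.1 with ASO1, 141, 121, 140.1 and 127 with ASO2, and in the control 86.1, 72.8, 71.4 and 68.0 (-0.78, limma adjusted p 3.53e-05). The ASO1 libraries overlapped the control, and all ASO2 libraries were above both. ETV4, an ETS factor downstream of ERK, behaved likewise, at 77.4 ± 11.4, 121 ± 18.3 and 66.2 ± 9.72 (-0.63, limma adjusted p 0.0017). DUSP5, the nuclear ERK phosphatase, had the opposite order, with 104, 129.8, 127 and 114 with ASO1 and 88.6, 65.9, 67.4 and 70.8 with ASO2 (0.70, adjusted p 0.000739). PHLDA1 was on the ASO1 side too (0.33, adjusted p 0.000892), and the cyclin CCND1 gave 0.009 (adjusted p 0.934).

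Cholesterol and fatty acid synthesis genes were, of the 31 lists, the one with the highest share of members higher with ASO1. Of 33 listed genes 32 were tested, and 17 were higher with ASO1 and 1 with ASO2, against 9.17% and 12.8% of all genes. The median was 0.19, and leaving out any 1 of the 12 libraries gave 15 to 18 and 1. After rescaling to the same total the counts were 21 and 1, and without replicate 1 of every group 19 and 1. HMGCS1, the first committed enzyme of the mevalonate pathway, had 4994, 4432, 4624 and 4029 with ASO1, 3219.8, 3006, 2847 and 2866 with ASO2, and in the control 3531, 3477, 3412 and 3297 (0.60, limma adjusted p 3.29e-07). INSIG1, which holds SREBP in the endoplasmic reticulum and is an SREBP target, was at 1597 ± 112 against 1123 ± 21.0 with NCA at 1295 ± 20.2 (0.51, limma adjusted p 4.93e-07).

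Later steps showed the same side: MVD (0.57), FDFT1, squalene synthase (0.42), MSMO1 (0.49), HSD17B7 (0.50) and DHCR7 (0.27), with limma adjusted p values between 1.38e-05 and 0.0023. The lipogenic desaturase SCD (0.11) did not pass (adjusted p 0.247), and ACACA, acetyl-CoA carboxylase, was higher with ASO2 (-0.19, adjusted p 0.00316). Against NCA, 10 of the 32 were up and 3 down with ASO1, and 0 up and 12 down with ASO2. Over all genes, 13.6% were up and 14.4% down with ASO1, and 17.6% up and 14.8% down with ASO2. SREBF2, the gene of SREBP2, lay below NCA with both ASOs (-0.18 with ASO1 and -0.37 with ASO2) and was higher with ASO1 than with ASO2 (0.19, limma adjusted p 0.006).

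**Figure D3:**
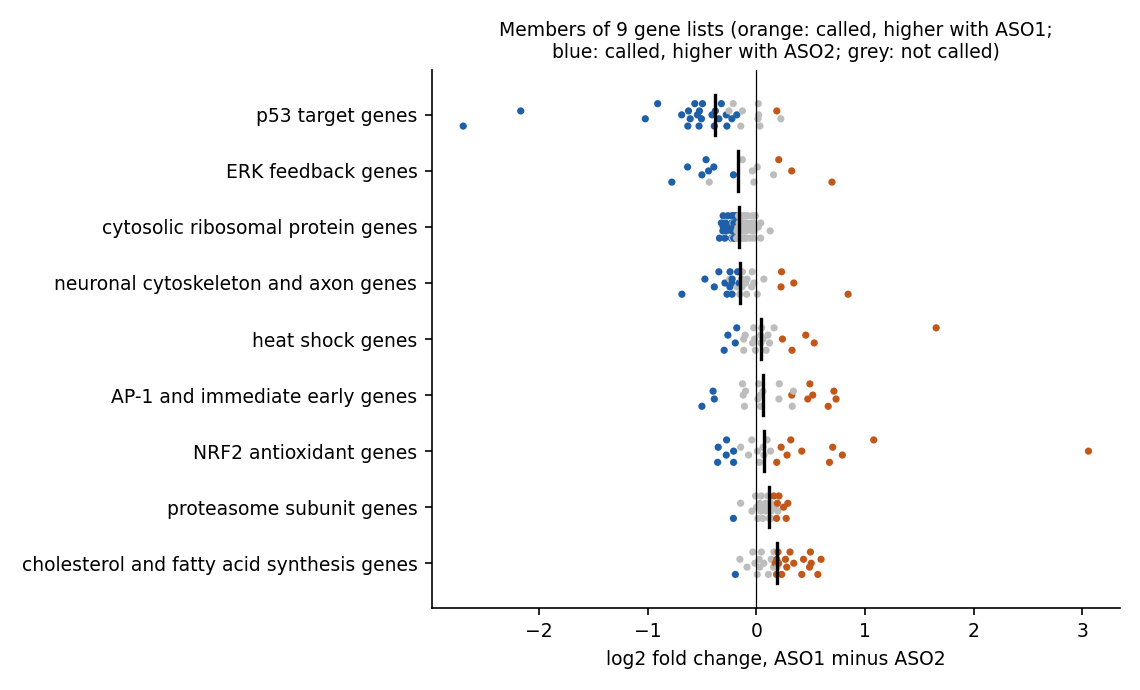
Log2 fold change of ASO1 minus ASO2 for each tested member of 9 gene lists (points) with the list median (black bar). The p53 targets spread to the ASO2 side with a median of -0.38, and the cholesterol and fatty acid synthesis genes to the ASO1 side with a median of 0.19.

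Neuronal cytoskeleton genes lay on both sides. The 3 neurofilament subunits, which form the intermediate filaments of axons, were higher with ASO1. NEFM, the medium neurofilament subunit, had 5433, 5836, 6151 and 5669 with ASO1, 3143, 3192, 3080.1 and 3437 with ASO2, and in the control 2714, 2494, 2492 and 2461 (0.84, limma adjusted p 5.36e-10). The 3 groups did not overlap. NEFH and NEFL, the heavy and light subunits, were also higher with ASO1, by 0.35 and 0.23 (limma adjusted p 1.68e-05 and 0.0102). MAP1B, DCX and MAP2, which bind microtubules, were higher with ASO2. MAP1B, which stabilises microtubules in growing axons, had 28631, 21596, 22126 and 23670.0 with ASO1 and 42049, 38289, 36009 and 37303 with ASO2, and 41635, 36421, 37538 and 36038 with NCA (-0.68, limma adjusted p 2.19e-06). DCX, doublecortin of migrating neurons, and MAP2 of dendrites differed by -0.47 and -0.39 (limma adjusted p 7.39e-05 and 1.26e-05). For these 3 the ASO2 libraries overlapped NCA, at 0.019, 0.059 and 0.018 relative to NCA, and all ASO1 libraries lay below NCA. Of the 31 tested genes of the neuronal cytoskeleton and axon list, 13 were higher with ASO2 and 4 with ASO1 (median -0.15). The shares over all genes were 12.8% and 9.17%. The list counts were 10 and 4 after rescaling to the same total, and 17 and 4 without replicate 1 of every group. The fourth gene with ASO1 was TAGLN3 (0.23), and the neuronal tubulin TUBB3 (-0.13) and GAP43 (-0.022) did not pass.

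Catecholamine and chromogranin genes, which make up the transmitter and its dense-core vesicles, had 3 of 20 tested members on each side (median -0.083). This share of 15% stood against 9.17% of all genes with ASO1 and 12.8% with ASO2. After rescaling to the same total, 4 were higher with ASO1 and 2 with ASO2. CHGB, a granin of dense-core vesicles, had 3518, 3501, 3484 and 3595 with ASO1 and 1937, 1827, 1769.5 and 1709.5 with ASO2, with NCA between at 2279, 2099.5, 2181 and 2118 (0.96, limma adjusted p 1.99e-11). INSM1, a zinc finger transcription factor of neuroendocrine cells, had 2998, 2779.8, 2763 and 2899.8 with ASO1, 1766, 1682, 1519 and 1478 with ASO2, and in the control 1671, 1757, 1746 and 1686 (0.83, limma adjusted p 1.93e-09). ASO2 was not called against NCA for INSM1 (-0.093, adjusted p 0.198). Of the other listed genes, the sister granin CHGA differed by 0.24 (adjusted p 0.000543), and GCH1, which makes the cofactor of catecholamine synthesis, by 0.44 (adjusted p 0.000785). Higher with ASO2 were the granins SCG3 (-0.29, limma adjusted p 0.00699) and SCG2 (-0.22, adjusted p 0.0374) and the nicotinic receptor subunit CHRNA3 (-0.21, adjusted p 0.00276). The SCG2 call was lost after rescaling to the same total (-0.16), without ASO1 replicate 2, 3 or 4 (-0.20, -0.18 and -0.23) and without ASO2 replicate 1 or 2 (-0.17 and -0.20). RGS4, which speeds the shut-off of G proteins, had 883, 799, 839.8 and 881, 424, 391, 393 and 342 and 448, 468, 454 and 426 with ASO1, ASO2 and NCA (1.14, limma adjusted p 2.79e-10).

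The transcription factors that define adrenergic neuroblastoma had 5 of 16 tested members called (31.2%), against 21.9% of all genes. Of the 16, 4 were higher with ASO2 and 1, INSM1, with ASO1, or 4 and 2 after rescaling to the same total. Without ASO1 replicate 1 the ASO2 count was 7, without replicate 1 of every group it was 8, and without ASO2 replicate 2 the ASO1 count was 2. GATA3, EYA1, ISL1 and KLF7 differed by -0.27, -0.26, -0.30 and -0.19 (limma adjusted p 0.00059, 0.00171, 0.00305 and 0.0131). The KLF7 call was lost without ASO1 replicate 2 or 3 (-0.17 and -0.16). MYCN was at 25595 ± 1516 and 28078 ± 1994 (-0.13, adjusted p 0.107). HAND2, SOX11 and PHOX2A also did not pass.

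Outside these lists, several genes differed strongly with no overlap between the ASO libraries. On the ASO2 side, MMP2, a matrix gelatinase, had 93.1, 77.7, 95.7 and 91.1 with ASO1, 215, 249.5, 237 and 235 with ASO2, and in the control 160.5, 155, 154 and 149.7 (-1.38, limma adjusted p 1.13e-09), so that NCA lay between. PGF, placental growth factor of the VEGF family, had 213, 243, 223 and 213, 434, 504, 472 and 526 and 227, 206, 227 and 256 (-1.11, limma adjusted p 6.67e-09), with the ASO1 and NCA libraries overlapping. EPPK1, the cytolinker epiplakin, and LTB4R, a leukotriene B4 receptor, showed the same form, with 62.2 against 152 and 68.8 against 170.0 (NCA 60.7 and 88.4; -1.27 and -1.30). LTB4R overlaps LTB4R2 on its strand, so how their reads were divided is uncertain. In other genes it was ASO1 that left the control level. PLCL1, a phospholipase C-like protein without catalytic activity, was at 49.2 ± 5.68 with ASO1, 127 ± 15.7 with ASO2, and in the control 119.7 ± 5.84 (-1.35). MXD1, a MAX partner that opposes MYC, was at 114, 224 and 189 (-0.97), and AKIP1, which binds protein kinase A, at 64.7, 132 and 106 (-1.04). PURPL, a p53-induced long non-coding RNA, was below NCA with ASO1 and above it with ASO2, at 169, 387 and 313 (-1.19). ENSG00000254202, with no symbol, was at 50.3, 108 and 58.5 (-1.09), the ASO1 libraries overlapping NCA.

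ANKRD11 and WDR1 had small adjusted p values at smaller size. ANKRD11, a chromatin co-regulator, had 2610.0, 2703, 2666 and 2449.5 with ASO1, 4618, 4851, 5110.1 and 4637 with ASO2, and in the control 3880.4, 4004, 4162 and 4238 (-0.88, limma adjusted p 1.57e-10). ASO1 lay below the control (-0.64) and ASO2 above it (0.24). WDR1, which helps cofilin take actin filaments apart, had 824, 747, 756 and 713, 1285, 1298, 1289.9 and 1279.8 and 861, 809, 896 and 823 (-0.76, adjusted p 3.81e-09).

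On the ASO1 side, DISP3, a Patched-domain membrane protein, was at 797 ± 107 with ASO1, 376 ± 40.0 with ASO2, and in the control 410.4 ± 50.7 (1.08, limma adjusted p 2.05e-07). PRSS35, a serine protease-like protein, was at 120.0 ± 9.83, 40.5 ± 6.65 and 37.3 ± 5.62 (1.55, adjusted p 2.16e-07). In both, the ASO2 libraries overlapped NCA. PCDH10, a protocadherin of cell adhesion, was above NCA with both ASOs, at 184 with ASO1, 88.2 with ASO2, and in the control 60.0 (1.07 between the ASOs). TEX14, of germ cell bridges, had the same order at 114, 57.7 and 30.8 (1.00). NPTX1, a neuronal pentraxin of synapses, was above NCA with ASO1 and below it with ASO2, at 493 ± 13.4, 248 ± 14.1 and 384 ± 12.6 (0.99, limma adjusted p 9.7e-10). DBH-AS1, antisense to the noradrenaline enzyme gene DBH, was likewise above NCA with ASO1 and below it with ASO2, at 167, 59.3 and 104 (1.50), while DBH gave 0.004 (adjusted p 0.972). SYNPO, an actin-binding protein of dendritic spines, was at 106, 56.2 and 93.0 (0.94). MTND5P30, a copy of the mitochondrial gene MT-ND5 in the nuclear genome, was at 111 and 56.1 (0.97), where reads of the 2 copies may be mixed.

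In several genes higher with ASO1, ASO2 lay below NCA. STX1A, the synaptic t-SNARE syntaxin 1A, had 603, 690.1, 729 and 698 with ASO1, 415, 491, 473 and 455 with ASO2, and in the control 551, 612, 659 and 609 (0.57, limma adjusted p 7.66e-06). CCNK, the cyclin of the elongation kinases CDK12 and CDK13, was at 992 ± 42.1, 727 ± 49.7 and 894 ± 14.9 (0.45, adjusted p 5.27e-06). RNASEH2B, a subunit of ribonuclease H2, was below NCA with both, at -0.19 with ASO1 and -0.49 with ASO2, and differed by 0.30 between them (limma adjusted p 7.76e-05). The nuclear exonuclease XRN2 differed by 0.32 and the antiviral adaptor MAVS by 0.32 (adjusted p 0.000192 and 0.000148). MALAT1, the abundant nuclear long non-coding RNA, was at 411917 ± 17246 with ASO1, 316534 ± 13875 with ASO2, and in the control 403697 ± 19539 (0.38, limma adjusted p 0.00143).

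Nucleic acid sensors and interferon genes answer foreign RNA and DNA in the cell. Of 41 listed, 18 were expressed enough to be tested, 2 were higher with ASO1 (MAVS and TBK1, 0.29) and 2 with ASO2 (IFI44L and EIF2AK2), or 3 and 2 after rescaling to the same total. IFI44L, an interferon-stimulated gene, was at 93.4 ± 9.53 with ASO1, 155 ± 10.3 with ASO2, and in the control 111 ± 6.15 (-0.73, limma adjusted p 1.94e-05). EIF2AK2, the double-stranded RNA kinase PKR, was at 861 and 1091 (-0.35, adjusted p 0.00291). Each side held 11.1% of the tested members, near the 9.17% with ASO1 and 12.8% with ASO2 of all genes. The list median was -0.014.

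LINC00682, a long non-coding RNA on chromosome 4 that was singled out in earlier results of these data, was below NCA with both ASOs and lower with ASO2. Its counts were 2010.4, 1951, 1772 and 1800.4 with ASO1, 1655, 1365, 1389.6 and 1447 with ASO2, and in the control 2798, 2557, 2489.8 and 2514. The difference between the ASOs was 0.37 (SE 0.061, limma adjusted p 0.000195), and a two-sided exact permutation test gave 0.0286, the smallest p that 4 against 4 libraries allow. Of 10 tested genes of its stretch of chromosome 4, 2 were higher with ASO1, LINC00682 and UCHL1 (0.20), against 9.17% of all genes. On the ASO2 side was 1, TMEM33 (-0.19, limma adjusted p 0.0481), against 12.8% of all genes. The TMEM33 call was lost after rescaling to the same total (-0.13) and in 9 of 12 fits that left out 1 library.

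In genes of growth machinery the counts of calls depended on the scaling and on single libraries. Of 78 genes of cytosolic ribosomal proteins, 31 were higher with ASO2 and 0 with ASO1 (median -0.16), against 12.8% and 9.17% of all genes. DESeq2 and edgeR gave 30 and 31 with ASO2, also with 0 on the ASO1 side. After rescaling to the same total 24 were higher with ASO2 and 1 with ASO1, and leaving out 1 library gave 14 (without ASO1 replicate 2) to 54 (without ASO1 replicate 1), with 15 without ASO1 replicate 3 and 18 without ASO1 replicate 4 or ASO2 replicate 2. Without replicate 1 of every group it was 58, and without a trend of the variance on the level 11. Examples were RPS7 (-0.32) and RPL3 (-0.31), with limma adjusted p 0.000295 and 0.00106; many ribosomal protein genes have near-identical pseudogenes, which makes their counts uncertain. Ribosome biogenesis genes had 12 of 40 higher with ASO2 and 1 with ASO1, among them WDR75, a nucleolar factor of pre-ribosomal RNA transcription (733 ± 34.0 against 1136 ± 35.3; -0.63, limma adjusted p 8.44e-08), and GNL3 (-0.28). Without ASO1 replicate 2 or 3 the ASO2 count for this list was 7 or 6, and after rescaling to the same total it had 8 with ASO2 and 2 with ASO1. The summed ribosomal RNA precursor entries were at 17805 ± 1815 normalized counts with ASO1 and 21167 ± 4535 with ASO2 (SD, n = 4; two-sided exact permutation p 0.229).

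Mitochondrially encoded genes took 4.68% ± 0.224 of the values with ASO1, 5.33% ± 0.614 with ASO2 and 4.93% ± 0.261 with NCA (SD, n = 4; two-sided exact permutation p 0.114 between the ASOs). ASO2 replicate 1, at 4.51%, lay within the ASO1 range of 4.46% to 4.97%, and the other 3 ASO2 libraries above it. Of the 13 genes 8 were higher with ASO2 and 0 with ASO1, 2 after rescaling to the same total, 1 without ASO1 replicate 3, 3 and 4 without ASO2 replicates 3 and 4, 5 without ASO1 replicate 2 and 12 without replicate 1 of every group. MT-ND1 had the largest difference (-0.38, limma adjusted p 0.000512). Proteasome subunits had 7 of 32 higher with ASO1 and 1 with ASO2 (median 0.12), and 17 and 0 after rescaling to the same total, or 15 and 1 without replicate 1 of every group. Leaving out 1 library gave 4 (without ASO1 replicate 4 or ASO2 replicate 3) to 12 (without ASO2 replicate 1) on the ASO1 side. PSMB4 (0.28) and PSMA4 (0.29) were the largest. DNA replication genes had 5 of 40 and mitosis genes 6 of 40 higher with ASO2, and 0 with ASO1 in each, against 12.8% and 9.17% of all genes. Rescaling to the same total gave ASO2 counts of 2 and 4, with 1 on the ASO1 side of each list. Without replicate 1 of every group they were 12 and 20. Leaving out 1 library gave 2 to 12 for replication and 3 to 18 for mitosis, with 12 without ASO1 replicate 1 or ASO2 replicate 3 and 18 without ASO1 replicate 1. Of the other fits, 8 for replication (all but those without NCA replicate 2 or 3) and 6 for mitosis (those without ASO1 replicate 2, 3 or 4 or ASO2 replicate 1, 2 or 4) also moved by more than 1.5 times. MCM3 of the replicative helicase (-0.30) and the kinase subunit CKS2 (-0.31) were examples.

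The remaining lists are given by their counts, to be read against 9.17% and 12.8% of all genes, with the counts after rescaling to the same total and those that moved by more than 1.5 times when libraries were left out. ER unfolded protein response genes had 7 of 25 with ASO2 and 1 with ASO1, HERPUD1 (0.34), or 4 and 2 after rescaling. Their ASO2 count was 3 without ASO1 replicate 3 and 4 without replicate 2 of ASO1 or of ASO2. The chaperone HSPA5 gave 0.003 (limma adjusted p 0.977). ATF4 target genes had 3 of 31 with ASO1 and 0 with ASO2, or 8 and 0 after rescaling and 7 and 5 without replicate 1 of every group. Their ASO1 count was 6 without ASO2 replicate 1, and their ASO2 count was 3 without replicate 1 of ASO1 or NCA and 2 without ASO2 replicate 4. PPP1R15A, the phosphatase subunit GADD34, was among them (1236 ± 135 against 949.5 ± 107, NCA 378 ± 9.97; 0.38, limma adjusted p 0.0013), as was CEBPB (0.35). Elongation genes had 3 of 21 with ASO1 and 5 with ASO2, or 5 and 4 after rescaling, with HEXIM1, the inhibitor of P-TEFb, at 1253, 853 and 496 (0.55, adjusted p 1e-05).

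Splicing factors had 9 of 34 with ASO2, such as SRSF4 (-0.36) and HNRNPA1 (-0.34), and 1 with ASO1, the kinase CLK1 (0.36). They gave 8 and 2 after rescaling, and 16 and 1 without replicate 1 of every group. Small nucleolar RNA hosts had 7 of 19 with ASO2 and 1 with ASO1, SNHG5 (0.30), or 4 and 2 after rescaling. Translation initiation factors had 5 of 38 with ASO2 and 2 with ASO1, or 4 and 4 after rescaling. Their ASO2 count was 11 without ASO1 replicate 1 and without replicate 1 of every group. Their ASO1 count was 4 without ASO2 replicate 1 and 1 without ASO1 replicate 2 or 4 or ASO2 replicate 2. Nuclear respiratory chain genes had 6 of 72 with ASO2 and 3 with ASO1, or 3 and 3 after rescaling. Their ASO2 count was 15 without ASO1 replicate 1, and 0, 1 and 2 without ASO1 replicates 2, 3 and 4. It was 1 and 3 without ASO2 replicates 1 and 2, so it rested on single libraries.

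Receptors and surface antigens had 8 of 24 with ASO2, PDGFRB among them (-0.37), and 3 with ASO1, or 4 and 4 after rescaling. Their ASO2 count was 3 without ASO2 replicate 1, 4 without ASO1 replicate 3 and 5 without ASO1 replicate 2 or 4 or ASO2 replicate 2, and their ASO1 count was 1 without ASO1 replicate 4. The ID and SMAD list had 2 of 13 on each side, with ID1 higher with ASO2 (-0.47) and ID2 with ASO1 (0.38), and its ASO1 count was 1 in 6 of the 12 fits that left out 1 library. Polyamine genes had 3 of 13 with ASO2, led by ODC1 (-0.30), and 1 with ASO1. Without ASO1 replicate 1 the ASO2 count was 7, and the ASO1 count was 0 in 6 of 12 fits. Synaptic vesicle genes had 4 of 26 with ASO2, RAB3A the largest (-0.52), and 2 with ASO1, or 2 and 3 after rescaling, and 2 with ASO2 without ASO2 replicate 4. RGS genes had 4 of 14 with ASO1, a count of 1 without ASO1 replicate 3 and of 2 without ASO1 replicate 1 or 4. Paraspeckle and RNase H genes had 3 of 17 with ASO1. In limma neither list had any with ASO2, but the latter had 2 without ASO1 replicate 1 and 3 without replicate 1 of every group.

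Calls were divided by gene class as follows. Of 2332 long non-coding genes tested, 234 were higher with ASO1 (10.0%) and 74 with ASO2 (3.17%), whereas of 12709 protein-coding genes 1238 were higher with ASO1 (9.74%) and 2074 with ASO2 (16.3%). After rescaling to the same total the long non-coding genes gave 307 and 57 and the protein-coding genes 1897 and 1485. The median fold change was 0.12 for long non-coding and -0.023 for protein-coding genes, and 0.18 and 0.031 after rescaling. Antisense transcripts had 105 of 969 with ASO1 and 27 with ASO2, and intergenic ones 81 of 764 and 28. Gene types, spans and overlaps come from GENCODE release 29, which covered 96.1% of the genes tested.

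Protein-coding genes higher with ASO2 spanned a median of 56.9 kb, those higher with ASO1 37.1 kb and all tested 34.9 kb. These sets also differed in level, with medians of 758, 345 and 375 normalized counts in the same order. The part of level in the differences of span, exon length and GC content was not tested. Genes were divided into 5 equal groups by span. In the group with the longest spans, 107 kb and more, 26.3% were higher with ASO2 and 7.47% with ASO1, against 18.0% and 12.1% in the next longest and 10.4% and 7.51% in the shortest. After rescaling to the same total the longest group gave 19.7% and 12.5%. Their median levels were 452, 506 and 214 normalized counts in the longest, next longest and shortest group, so the shortest genes also had the fewest reads. Against NCA the longest genes had medians of -0.19 with ASO1 and -0.13 with ASO2, and the shortest 0.087 and 0.11. Median exon length and GC content were 5716 bases and 48.8% with ASO1, 6444 bases and 46.7% with ASO2, and 5280.0 bases and 48.4% for all. The libraries were made with a total RNA or an mRNA kit, which the labels do not tie to libraries, and the part of unspliced RNA in these differences was not tested.

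**Figure D4:**
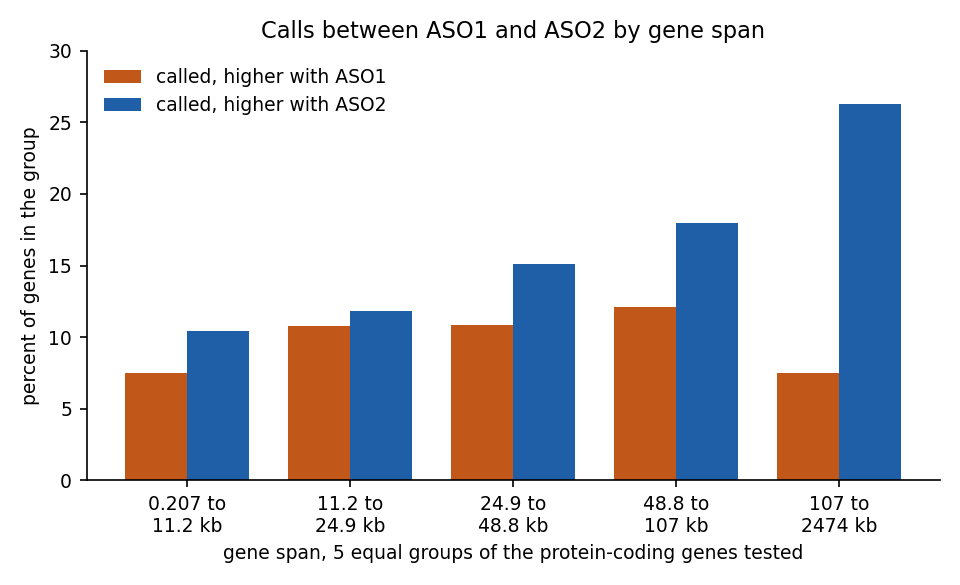
Percent of protein-coding genes called higher with ASO1 or with ASO2, in 5 equal groups of the tested genes ordered by gene span in kilobases. The share higher with ASO2 goes from 10.4% in the shortest group to 26.3% in the longest, where the share higher with ASO1 is 7.47%.

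ASO2 had also been used in NGP and SK-N-BE(2)c, whose libraries are separate from those of IMR32. In NGP 30.6% of genes tested were higher and 28.1% lower with ASO2 than with NCA, and in SK-N-BE(2)c 33.6% and 33.4%. Genes higher with ASO2 than ASO1 in IMR32 and above NCA there numbered 1066. Of these, 756 of 999 tested were higher with ASO2 in NGP (75.7%; 3.70% lower) and 778 of 972 in SK-N-BE(2)c (80.0%; 5.04% lower). They make up 17.1% of all genes higher in NGP and 17.1% of those in SK-N-BE(2)c. The 673 genes lower with ASO2 than ASO1 and below NCA were lower in NGP in 413 of 538 (76.8%) and in SK-N-BE(2)c in 437 of 520 (84.0%). Genes that both ASOs had raised in IMR32 with no call between them were higher in 71.8% of those tested in NGP and 80.5% of those in SK-N-BE(2)c.

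On the ASO1 side, the 420 genes above NCA with ASO1 and not called with ASO2 were, with ASO2, higher in 22.6% and lower in 36.5% of 318 tested in NGP, and higher in 23.4% and lower in 42.2% of 308 in SK-N-BE(2)c. The 675 genes below NCA with ASO1 alone were lower in 31.8% and higher in 27.9% of 617 in NGP, and lower in 43.5% and higher in 22.1% of 579 in SK-N-BE(2)c. HMOX1, at 15.8, 9.87 and 10.0 with ASO2, and in the control 24.6, 10.6 and 16.4 in NGP, gave -0.46 (limma adjusted p 0.294); SK-N-BE(2)c gave 0.074 (adjusted p 0.578). RGS4 gave -0.039 and 0.057, and SQSTM1 -0.18 and 0.11. ASO1 itself was not used in those lines, so whether its side recurs in other cells was not tested.

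Most p53 targets were also higher with ASO2 than with NCA in the other lines. In NGP 27 of 33 tested were higher and 1 lower with ASO2 (median 0.61), and in SK-N-BE(2)c 18 of 28 were higher and 4 lower (median 0.27). MDM2 was at 55881, 53523 and 56854 with ASO2 against 27189.8, 26306 and 28486 with NCA in NGP (1.02, limma adjusted p 2.51e-15) and at 1307, 1208 and 1287 against 986, 1057 and 1071 in SK-N-BE(2)c (0.29, adjusted p 0.000243). CDKN1A differed by 1.44 and 0.46 (adjusted p 1.37e-14 and 0.0322). FAS was higher in NGP by 2.20 (adjusted p 2.03e-12) and gave -0.22 in SK-N-BE(2)c (adjusted p 0.654). GDF15 was higher in NGP (1.34, adjusted p 9.18e-08) and lower in SK-N-BE(2)c (-0.49, adjusted p 0.000368). NECTIN4 rose in NGP (2.41, adjusted p 6.69e-09) and was too low to be tested in SK-N-BE(2)c. Others were higher in both lines, POLH by 2.02 and 1.14, PPM1D by 1.00 and 1.02, and BBC3 by 0.73 and 0.69. The differences between lines were not tested, and in the other lines replicate 1 of the control has another spelling in the column names than replicates 2 and 3.

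**Figure D5:**
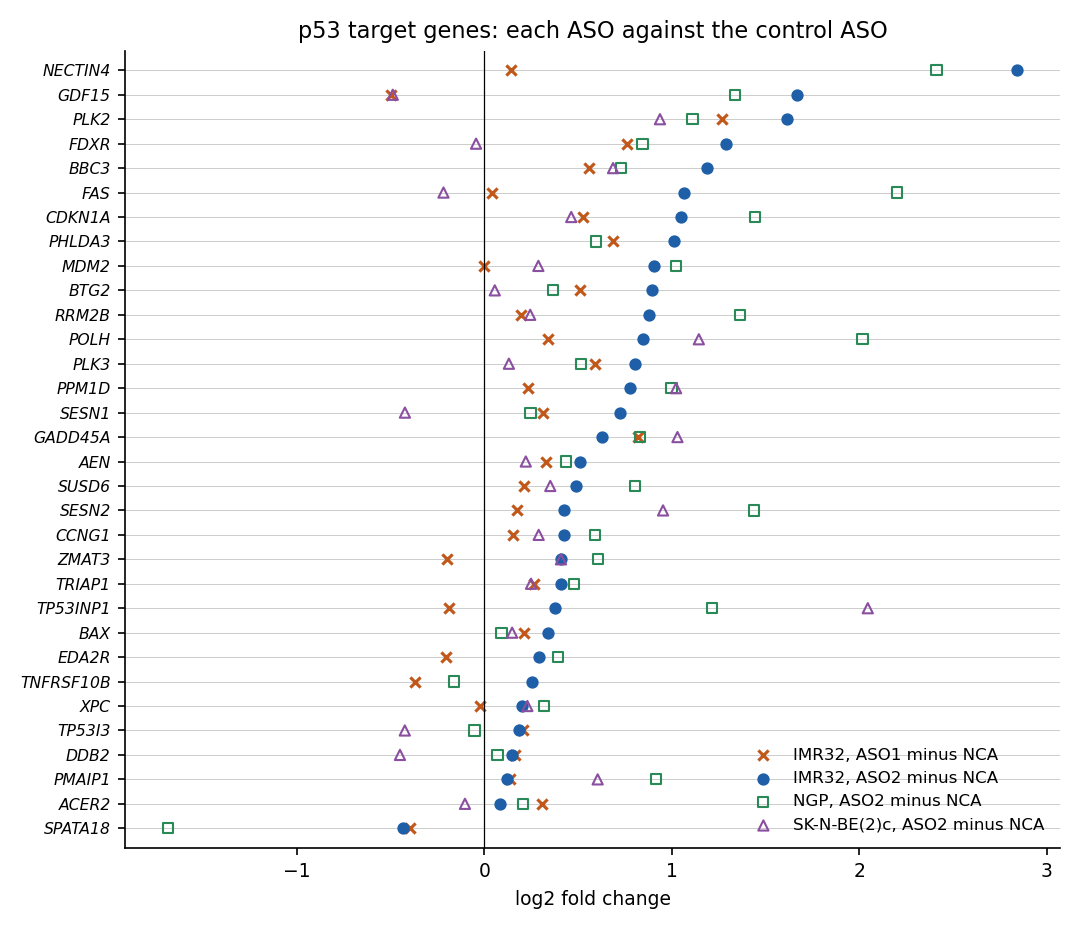
Log2 fold changes against NCA for 32 of the 33 tested p53 target genes: ASO1 and ASO2 in IMR32 (crosses and filled circles), ASO2 in NGP (squares) and SK-N-BE(2)c (triangles). FAS, MDM2 and NECTIN4 sit near 0 with ASO1 and above 0 with ASO2 in IMR32 and NGP.

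Outside the p53 list, several named genes of the ASO2 side were also higher with ASO2 in the other lines. ANKRD11 was higher with ASO2 by 0.93 in NGP cells and 1.03 in SK-N-BE(2)c, with adjusted p values in limma of 5.63e-13 and 5.11e-15. PGF was higher by 1.84 and 0.82, WDR1 by 0.66 and 0.75, DUSP6 by 0.91 and 1.20, and WDR75 by 1.26 and 0.99. Genes lower with ASO2 than ASO1 and below NCA in IMR32 were mostly lower in the other lines too. Of those tested, 21 of 538 were higher in NGP and 16 of 520 in SK-N-BE(2)c. The genes given here were chosen after their values were seen, so they do not show how often direction was kept in the other lines. CCNK, STX1A, RNASEH2B and MAVS were also lower there. CCNK gave -1.82 in NGP cells and -1.94 in SK-N-BE(2)c beside -0.30 in IMR32, and STX1A -1.08 and -1.13 beside -0.41. RNASEH2B gave -1.08 and -1.46 beside -0.49, and MAVS -1.17 and -1.04 beside -0.40, and none of these differences between lines was tested. CHGB, below NCA with ASO2 in IMR32 (-0.26), was higher in NGP cells (0.29, limma adjusted p 7.1e-05) and SK-N-BE(2)c (0.43, adjusted p 2.14e-08). PHLDA1 was likewise higher, by 1.30 and 0.65 beside -0.23 in IMR32. SLC7A11 gave 1.20 and -0.13 beside -0.83, of which the SK-N-BE(2)c value did not pass (limma adjusted p 0.26). PURPL went the other way in NGP (-1.44, adjusted p 2.3e-15), with 0.32 in IMR32.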

How the data were processed

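RNA sequencing libraries of IMR32 cells treated with ASO1, ASO2 or NCA (4 each) were compared, with ASO2 and NCA libraries of NGP and SK-N-BE(2)c (3 each) used for the ASO2 side. The deposited signal values are the authors' normalized counts, gene counts divided by 1 size factor per library as the values show, 1 table per line. Per the submitters' processing notes, FastQC 0.11.8, cutadapt 1.18, STAR 2.6.0, HTSeq 0.6.1 and DESeq2 1.42.0 were used, with builds hg19 and GRCh37; their settings are not given in the sources used here. In each IMR32 library the values were whole multiples of 1 step (tolerance 0.01 read), so reads were recovered (100% whole). Entries without a gene ID held 0.172% of the values and stayed out.

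Genes with a mean of at least 10 were tested on log2(value + 1) with limma 3.58.1, 1 mean per group over the 12 IMR32 libraries, moderated variances with a trend, Benjamini-Hochberg adjustment over all genes and a call at 0.05. The other lines were each fitted alone, together with a further ASO of those tables. edgeR 4.0.16 and DESeq2 1.42.0 on the recovered reads were alternatives. On simulated counts the fit called 84% of genes changed by 0.5 on the log2 scale and 98% of those changed by 1, with no wrong sign. The changed genes had a higher minimum mean than the 10 used for testing. The simulated libraries were independent, without the shared deviations of replicate 1, so recovery in these data may differ. Single quantities were tested by two-sided exact permutation. Members and gene lists were chosen with earlier results of these data known. Named were the 12 called genes per side with the largest difference (mean of at least 100 in the higher group, no overlap), the 5 per side with the smallest adjusted p, up to 4 called genes per list with the largest difference, and HMOX1, HSPA6, MDM2, NECTIN4, CHGB, RGS4, ANKRD11 and LINC00682. Of the list genes so named, some whose calls were lost under an alternative are not described, and further genes were named after their values were seen. The total and mRNA library kits in the labels are not tied to libraries. Some genes that these rules name are not reported here.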

Additional observations from a re-analysis of the deposited data

Results flagged for a closer look

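In 22 of 332 groups of 4 libraries examined (genes described in the text and 4 library totals), or 6.63%, 1 library lay far from the other 3, by a gap that chance gives in about 1 group in 20. ASO1 replicate 1 stood apart for CCNK at 1055 (others 965 to 978), FDXR at 169.7 (others 246 to 258), HNRNPA1 at 7711 (others 6341 to 6523) and HSPD1 at 6763 (others 5583 to 5728). It also stood apart for ODC1 at 4567 (others 3794 to 3897), PSMA4 at 3521 (others 3031 to 3074) and SCD at 14939 (others 12394 to 12602). ASO1 replicate 3 stood apart for ZNF750 at 7.58 (others 4.09 to 4.56). ASO1 replicate 4 stood apart for CHGA at 3149 (others 2996 to 3009). ASO2 replicate 1 stood apart for CCNG1 at 1229.7 (others 1098 to 1114), CYP4F3 at 86.8 (others 103 to 105), DDB2 at 229.8 (others 268 to 276) and EIF2AK2 at 1261 (others 1020.4 to 1046). It also stood apart for HSPA1B at 614 (others 817 to 839.9), ID1 at 179.8 (others 254 to 261), JUN at 1499.8 (others 1875 to 1941) and LTB4R2 at 49.1 (others 64.7 to 67.4). Further genes with this library apart were MAP2 at 3099 (others 2801 to 2841) and SQSTM1 at 754 (others 838 to 847). ASO2 replicate 3 stood apart for RRM2B at 496 (others 533 to 536). ASO2 replicate 4 stood apart for MAVS at 787 (others 844 to 851) and SESN1 at 351 (others 306 to 309.9). Of these 22 values, 17 were in replicate 1 of either ASO. For CHGB, all ASO2 libraries of IMR32 lay below NCA (-0.26 on the log2 scale) and all of NGP above it (0.29); the difference between the lines was not tested. For CHGB, all ASO2 libraries of IMR32 lay below NCA (-0.26 on the log2 scale) and all of SK-N-BE(2)c above it (0.43); the difference between the lines was not tested. For GDF15, all ASO2 libraries of IMR32 lay above NCA (1.67 on the log2 scale) and all of SK-N-BE(2)c below it (-0.49); the difference between the lines was not tested. For PHLDA1, all ASO2 libraries of IMR32 lay below NCA (-0.23 on the log2 scale) and all of NGP above it (1.30); the difference between the lines was not tested. For PHLDA1, all ASO2 libraries of IMR32 lay below NCA (-0.23 on the log2 scale) and all of SK-N-BE(2)c above it (0.65); the difference between the lines was not tested. For SLC7A11, all ASO2 libraries of IMR32 lay below NCA (-0.83 on the log2 scale) and all of NGP above it (1.20); the difference between the lines was not tested. For SQSTM1, all ASO2 libraries of IMR32 lay above NCA (0.39 on the log2 scale) and all of NGP below it (-0.18); the difference between the lines was not tested.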

How the results depend on the processing

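The total of 3795 calls stayed within 1.5 times under all 24 alternatives; edgeR gave 3948 and DESeq2 3458, and leaving out replicate 1 of every group, chosen after seeing the data, gave 5019. Rescaling to the same total turned the share of calls higher with ASO1 from 41.8% to 59.8%, and it turned RPL3 with ASO2 against NCA in SK-N-BE(2)c to -0.027. The number of called genes differing by 1 or more on the log2 scale, 57 with ASO1 and 63 with ASO2, moved to 9 and 15 at a minimum mean of 50, 148 and 165 with no filter, and 23 and 39 at a pseudocount of 5. Leaving out 1 library gave 2727 (without ASO1 replicate 3) to 4441 (without ASO1 replicate 1) calls, 1102 to 1752 with ASO1, 1625 to 2689 with ASO2, 49 to 72 and 55 to 72 among those differing by 1 or more, and a share of 39.5% to 44.1%. The replicate block gave 5677 calls, 2404 higher with ASO1 and 3273 with ASO2; same-numbered ASO1 and ASO2 libraries had correlations of 0.332, -0.0039, 0.163 and -0.0029, and not each was closest to its own number, so the numbers were not taken as pairing. Of 190 named called genes, 150 lost their call under no alternative in which they were tested; 14 were not tested at a minimum mean of 50 and 1 had no adjusted p in DESeq2. Rescaling to spike-in sequences was not run, since the 169 spike-in entries held no reads beyond a single one. Of genes with a simulated log2 change of 0.5, 84% were recovered, in a simulation without the lowest genes and without the shared deviations of replicate 1. The cause of these shifts was not tested.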

Other observations

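Several genes of low level also differed strongly between ASO1 and ASO2. They were chosen after their values were seen. SLC12A4, a potassium-chloride cotransporter, had counts of 4.56, 4.09, 2.84 and 1.67 with ASO1 and 33.3, 55.6, 43.1 and 49.1 with ASO2, and 0.00, 3.70, 5.49 and 3.67 with NCA (-3.46, limma adjusted p 1.27e-05). CYP4F2 and CYP4F3, neighbouring fatty acid hydroxylases with closely similar sequences, were at 0.00 to 10.4 and 14.6 to 21.8 with ASO1 and at 39.5 to 46.7 and 86.8 to 105 with ASO2 (-3.37 and -2.31), so reads of the pair may be mixed. In NGP their values against NCA were 3.29 and 3.55 (limma adjusted p 9.97e-10 and 1.24e-12). ZNF750, a zinc finger factor of epidermal differentiation, was at 4.09 to 7.58 with ASO1, 39.5 to 53.7 with ASO2 and 2.36 to 5.49 with NCA (-2.96). SLITRK6, a neuronal adhesion protein, was at 2.84 to 3.65, 21.9 to 45.7 and 1.23 to 7.08 (-2.92). PINCR, a p53-induced long non-coding RNA, was at 3.07 to 5.69, 21.1 to 42.4 and 7.40 to 11.8 (-2.69, limma adjusted p 6.22e-07), and in NGP gave 0.12 (adjusted p 0.828). On the ASO1 side, LINC02785, a long non-coding RNA, was at 21.9 to 37.8 with ASO1, 2.63 to 8.00 with ASO2 and 0.00 to 5.90 with NCA (2.46), and LRRC3B at 46.5 to 51.8, 9.65 to 17.1 and 6.17 to 22.0 (1.82). At these levels log2(value + 1) understates the folds.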
